A study of Mus musculus with 12 samples.

Results

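The genes of the ternary complex factors, of their partner SRF and of further ETS family transcription factors were followed through all libraries of an Elk4 knockout experiment in mouse mast cells. The set was chosen by name and holds Elk1, Elk3, Elk4, Srf, Ets1, Ets2, Elf1, Fli1, Etv6 and Gabpa, 10 of the 16234 genes listed. All 10 had enough reads to be tested. The question addressed was whether the relatives of Elk4 stood at higher levels in cells labelled as lacking it.

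Bone marrow cells of C57BL/6N mice aged 6 to 12 weeks, of both sexes, were cultured for 4 to 8 weeks with interleukin 3 and stem cell factor to give bone marrow-derived mast cells (BMMCs), more than 80% of which carried both CD117 and FcεRI. The mice carried a conventional Elk4 deletion on both alleles (labelled KO), on 1 (labelled HZ, heterozygous) or on none (WT littermates), so that no promoter-driven Cre was involved. Stimulated cells were sensitized overnight with 0.5 μg/ml anti-DNP IgE and then exposed for 1 hour to 100 ng/ml DNP-HSA antigen, which crosslinks the IgE receptor. Unstimulated cells are labelled untreated, and whether they had received IgE is not stated. The 3 genotypes and 2 states gave 6 groups with 2 libraries each, 12 in all. The labels do not say that the 2 libraries of a group came from separate mice or cultures, and p-values then measure only the spread between these libraries, which may be technical.

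Ternary complex factors (TCFs) are ETS-domain proteins that sit beside SRF on serum response elements, and ERK phosphorylates them after receptor stimulation. Elk1, Elk3 and Elk4 are the TCF genes, and their products bind closely similar sites, so that one member can act in place of another. Together with SRF they drive immediate-early genes such as Fos and Egr1, and Srf is itself a target of the complex. In mast cells the same ERK pathway is switched on when IgE receptors are crosslinked. The other ETS genes of the set share the DNA-binding domain but are not counted among the TCF genes. Ets1 and Ets2 are Ras-responsive activators, Elf1, Fli1 and Gabpa are broadly or haematopoietically active regulators, and Etv6 is a repressor.

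Promoter windows from RefSeq (build GRCm38.p6) were found for 8 of the 10 genes, in 11 windows, but not for Ets1 and Fli1, which were therefore not searched. The windows were searched for the SRF site and for a TCF-type ETS site. The SRF site searched is the CArG box, which is CC, then 6 bases that are each A or T, then GG, and the ETS site is CCGGAAG. Both strands of the 250 bases before each start were read. A CArG box was found in 1 of the 11 windows and CCGGAAG in 3, while 1.47% and 6.91% of all 32851 windows of that length held them. The following stretches, from 5′ to 3′ on the gene strand with the matches in capitals, are shown because they hold every match in the windows searched.
Srf, chr17:46556195-46556304, minus strand: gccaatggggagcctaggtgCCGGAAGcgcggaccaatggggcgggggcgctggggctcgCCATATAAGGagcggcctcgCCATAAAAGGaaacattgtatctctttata
Elk4, chr1:132007532-132007578, plus strand: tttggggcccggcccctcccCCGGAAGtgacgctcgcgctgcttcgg
Gabpa, chr16:84835011-84835057, plus strand: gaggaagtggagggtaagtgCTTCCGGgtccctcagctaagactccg
The Srf stretch carries an ETS match that begins 122 bases before the start and CArG boxes that begin 82 and 62 bases before it, and the match in Gabpa reads on the other strand. No match lay in the windows of Elk1, Elk3, Ets2, Elf1 or Etv6. A match is a run of letters and was not tested as a binding site.

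Between 29697958 and 35531667 reads per library were assigned to genes, and all 12 libraries were mast cell libraries by their markers. All 12 mast cell markers, among them Kit, Fcer1a and Cpa3, exceeded 1 FPKM (fragments per kilobase of gene, scaled to library size) in every library, with sums of 35457.5 to 47698. None of the neutrophil, lymphocyte and dendritic cell markers exceeded 1 FPKM, and their sums were at most 0.207, 0.360 and 0.0394 FPKM in any library. Macrophage and monocyte markers summed to between 41.4 and 43.4 FPKM in unstimulated WT libraries and between 26.7 and 32.04 in unstimulated HZ and KO libraries, while Csf1r and C1qa were near 0. Cx3cr1 made up most of the sum, at 35.7 FPKM in WT, 17.9 in HZ and 14.5 in KO libraries, whereas Lyz2 went the other way, at 4.51, 10.5 and 11.4 FPKM. Of the 6 of these markers tested, 2 were higher and 1 lower in unstimulated HZ than in WT, and 1 was higher and 1 lower in KO. The mast cell sum ran the other way at rest, from 39496.7 to 40371.9 in WT, 46234.1 to 47698 in HZ and 43302.3 to 44265.3 in KO. Cpa3, Cma1 and Tpsb2 were its largest parts, at 11875.1, 11242.1 and 8591.36 FPKM in unstimulated WT. Of the 12 mast cell markers, 8 were higher and 1 lower in unstimulated HZ than in WT (51.4% of all genes differed at adjusted p below 0.05). In KO 6 were higher and 4 lower than in WT (44.6% of all genes differed). Megakaryocyte markers, of which Itga2b and Gp1ba alone exceeded 1 FPKM, also differed by label at rest. They summed to 630.1 to 640.7 FPKM in WT, 859.6 to 860.9 in HZ and 628.7 to 632.3 in KO libraries. Basophil markers summed to 97.1 to 99.5, 107.5 to 107.7 and 80.9 to 81.9 FPKM in the same groups. The part of these shifts in the results was not tested. These are bulk samples, in which fewer cells of a type and less RNA per cell cannot be told apart.

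No gene of the set was higher in KO than in WT libraries by the test, in either state. In unstimulated cells 3 of the 10 genes were lower (Elk4, Ets1 and Ets2) and 0 higher, whereas 44.6% of all 12208 genes tested were called at an adjusted p below 0.05, 21.7% lower and 22.9% higher. In stimulated cells 4 were lower (Ets1, Ets2, Elf1 and Gabpa) and 0 higher, whereas 40.4% of all genes were called, 19.2% lower and 21.2% higher. The share of the set that differed was thus not above that of all genes in either state.

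The HZ libraries differed from WT in both directions. At rest Elk3, Elk4 and Elf1 were higher and Srf, Ets2 and Fli1 lower, 6 of 10 genes against 51.4% of all genes (25.4% higher, 26.0% lower). After stimulation Etv6 was higher and 7 genes were lower, 8 of 10 against 34.9% (18.4% higher, 16.5% lower). That count fell when single libraries were left out, and so did the share of all genes called. The KO and HZ comparisons use the same WT libraries. By the study's further threshold of 1.5-fold higher or 0.66-fold lower, Ets1 remained in KO (12.7% of all genes) and Ets2 in HZ (16.7%) at rest, and both genes in KO (12.7%) and in HZ (7.89%) after stimulation.

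Elk4, the targeted gene, was read in every library. Normalized counts (CPM, counts scaled to library size by the trimmed mean of M values) were 73.2 and 78.3 in unstimulated WT libraries, 93.2 and 86.0 in HZ and 69.7 and 63.5 in KO libraries. The 2 HZ libraries were the highest and the 2 KO libraries the lowest, and the 3 groups did not overlap. Elk4 was 1.14-fold lower in KO than in WT (log2 fold change -0.19, 95% confidence interval -0.31 to -0.067, adjusted p = 0.00872). That call was lost without WT unstimulated replicate 2 (adjusted p = 0.16) or KO unstimulated replicate 2 (adjusted p = 0.194), and in limma on log2 FPKM values (adjusted p = 0.0614 to 0.104). Elk4 was 1.18-fold higher in HZ than in WT (adjusted p = 0.000484), which limma did not call (adjusted p = 0.0691 to 0.115), and 1.35-fold lower in KO than in HZ (adjusted p = 3.61e-08).

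After stimulation the Elk4 values of the groups lay closer together. They were 78.2 and 67.0 CPM in WT, 65.2 and 63.7 in HZ, with 67.1 and 68.5 in KO libraries, so that WT and KO overlapped. KO against WT gave a log2 fold change of -0.10 (95% confidence interval -0.22 to 0.025, adjusted p = 0.208). Without WT stimulated replicate 2 the same comparison was called at -0.20 (adjusted p = 0.0186). HZ was 1.13-fold lower than WT (adjusted p = 0.0243), a call that was lost without WT stimulated replicate 1 (adjusted p = 0.62), HZ stimulated replicate 1 (0.0596) or HZ stimulated replicate 2 (0.134), with library totals (0.0621) and in limma (0.215 to 0.313). The KO label thus went with 0.879 of the WT level of Elk4 reads at rest and 0.934 after stimulation. A count over the whole gene cannot show a deletion of part of it, the deleted part is not given in the sources used here, and the protein blots with which the study checked the deletion are not analysed here. The names WT, HZ and KO below stand for the libraries so labelled.

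Elk1 and Elk3, the other TCF genes, were not called higher in KO libraries. Elk1, the archetypal TCF activator, stood at 25.8 and 24.9 CPM in unstimulated WT, 22.0 and 23.8 in HZ, with 23.0 and 23.9 in KO libraries. After stimulation it stood at 31.6 and 33.3 in WT, 27.9 and 30.9 in HZ, with 27.7 and 29.99 in KO libraries. In both states every KO value was below every WT value. The KO to WT ratio was 0.924 at rest (95% confidence interval 0.822 to 1.04, adjusted p = 0.283) and 0.888 after stimulation (0.791 to 0.997, adjusted p = 0.098). A rise of more than 1.04-fold in KO libraries thus lay outside the interval in both states. HZ against WT gave a ratio of 0.901 at rest (adjusted p = 0.135), which library totals in place of the trimmed mean scaling called as lower (adjusted p = 0.0429), and 0.904 after stimulation (adjusted p = 0.175).

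Elk3, a TCF that represses until it is phosphorylated, stood at 33.8 and 33.3 CPM in unstimulated WT, 38.1 and 39.1 in HZ, with 30.5 and 30.04 in KO libraries. The order HZ, WT, KO was the same as for Elk4, without overlap. The KO to WT ratio was 0.902 (95% confidence interval 0.812 to 1.00, adjusted p = 0.109), which limma on log2 FPKM values called as lower (adjusted p = 0.0418 to 0.0479). HZ was 1.15-fold higher than WT (adjusted p = 0.0206). That call was lost without WT unstimulated replicate 1 (adjusted p = 0.0605), WT unstimulated replicate 2 (0.104) or HZ unstimulated replicate 2 (0.119), with library totals (adjusted p = 0.0818) and in limma (adjusted p = 0.0504 to 0.0585).

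In stimulated cells Elk3 was measured at 29.1 and 32.9 CPM in WT, 25.8 and 27.4 in HZ, with 29.65 and 29.60 in KO libraries. KO values lay between the WT values, at a ratio of 0.956 (95% confidence interval 0.856 to 1.07, adjusted p = 0.552). HZ was 1.17-fold lower than WT (adjusted p = 0.0242), a call that was lost without WT stimulated replicate 2 (adjusted p = 0.362) or HZ stimulated replicate 1 (0.183).

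**Figure D1:**
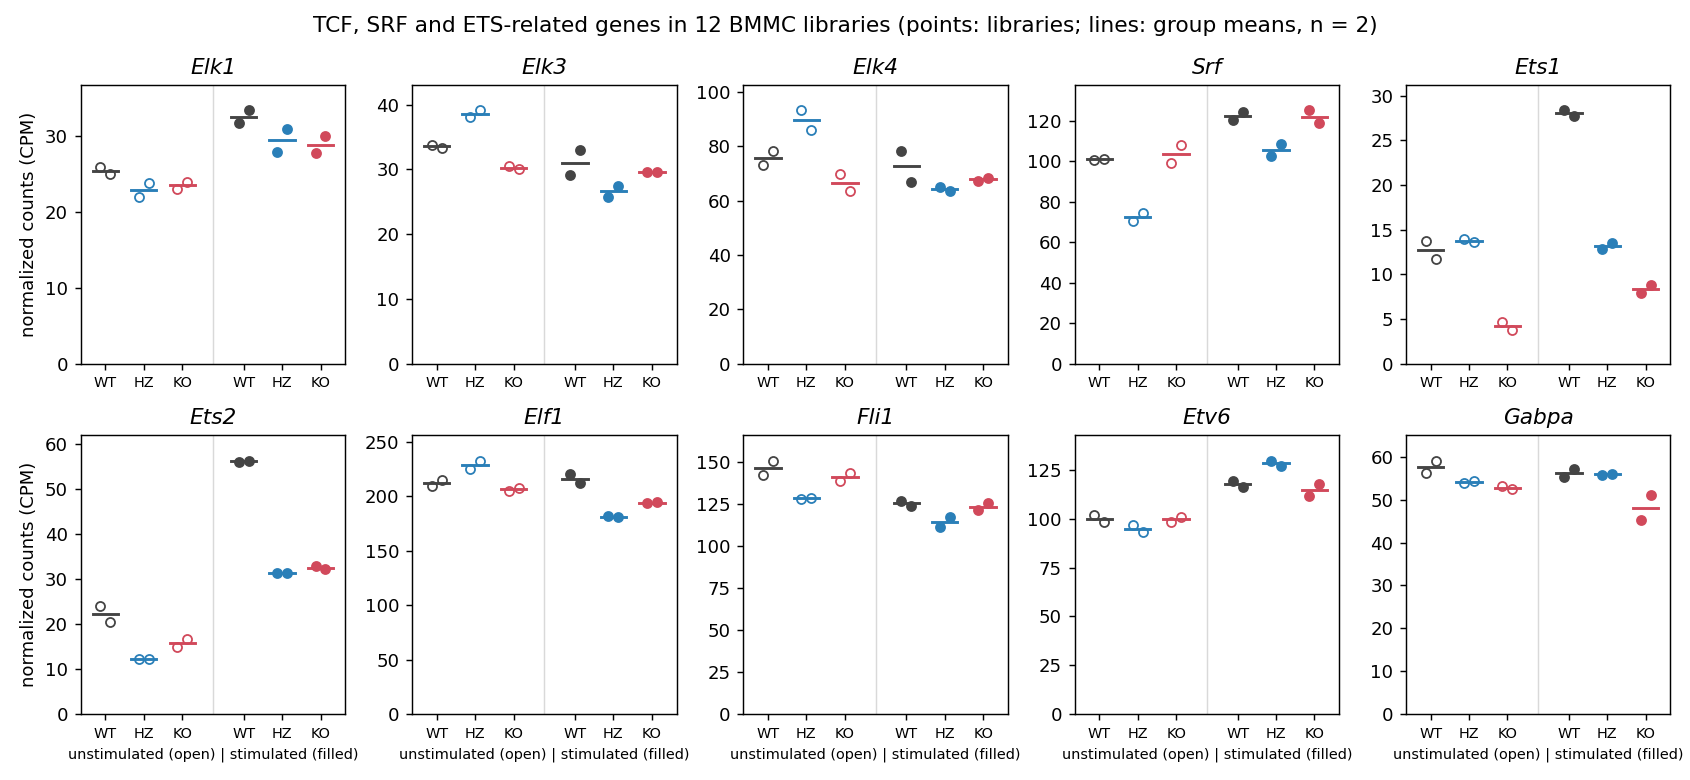
Normalized counts (CPM, linear axes from 0) of the 10 genes in the 12 libraries. Open points are unstimulated and filled points stimulated libraries, lines are means of 2 libraries. In each state no KO library exceeds the highest WT library for Elk1, Elk3 or Elk4, and Ets1 in KO libraries lies between 3.72 and 8.76 CPM, below all WT libraries, and Ets2 lies at 12.3 CPM in both unstimulated HZ libraries.

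The shares of the TCF genes overlapped between KO and WT libraries in each state, while resting HZ libraries stood apart in Elk1 and Elk4. Per length, Elk4 was the most abundant TCF in every library and made up 51.8% and 54.1% of the summed FPKM of Elk1, Elk3 and Elk4 in unstimulated WT, 58.2% and 55.0% in HZ, with 53.3% and 50.6% in KO libraries. The KO and WT shares overlapped, and both HZ shares lay above them. Elk1 made up 18.9% and 20.9% in unstimulated HZ, below the 23.7% and 25.2% in WT and the 24.2% and 26.3% in KO libraries. In stimulated libraries the Elk4 share ranged from 46.3% to 52.2% over all genotypes, and that of Elk1 from 28.5% to 32.1%, compared with 18.9% to 26.3% at rest. The shares of Elk1 at rest and after stimulation did not overlap, and shares do not depend on the scaling of a library.

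The summed level of the 3 genes, scaled by the trimmed mean of M values, was 29.2 ± 0.489 FPKM (SD, n = 2) in unstimulated WT, 32.4 ± 0.540 in HZ and 26.2 ± 0.768 in KO libraries. After stimulation it was 30.1 ± 0.730 in WT, 26.7 ± 0.597 in HZ and 27.8 ± 0.654 in KO libraries. The KO sum was the lowest at rest, and the HZ sum went from the highest at rest to the lowest after stimulation. Among 25 ETS family genes listed, the TCF genes accounted for 9.52% to 11.7% of the summed FPKM over the 12 libraries.

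**Figure D2:**
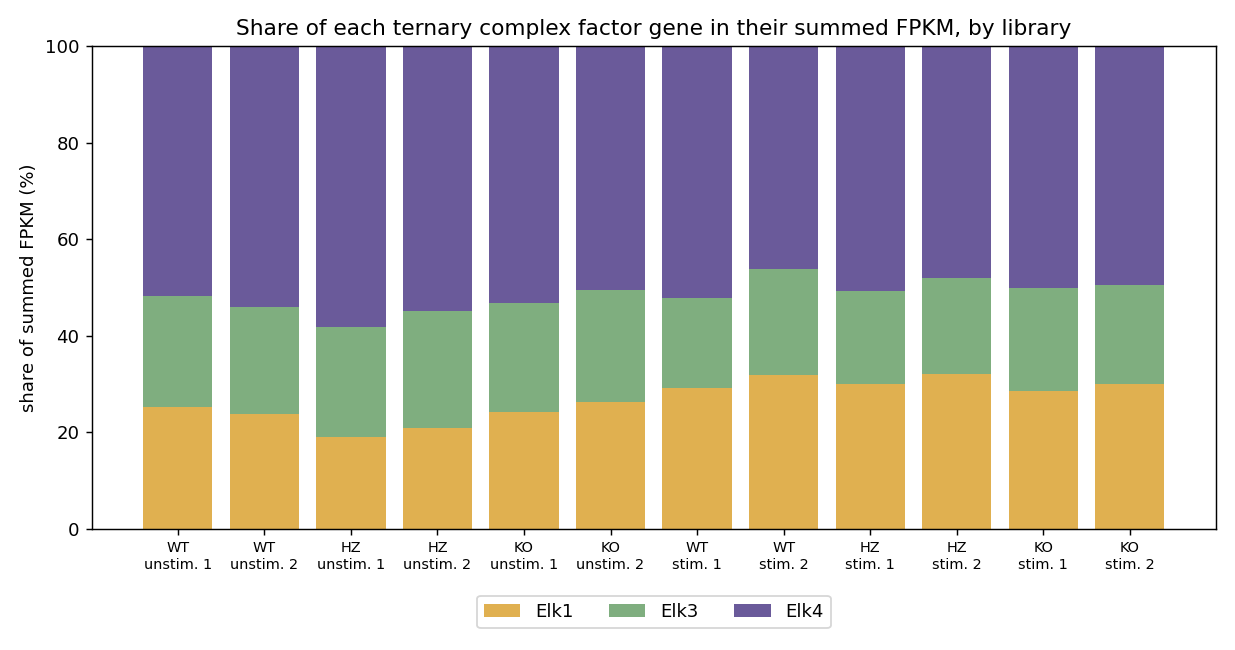
Share of Elk1, Elk3 and Elk4 in their summed FPKM, in percent, for each library. Elk4 holds 46.3% to 58.2% of the sum in every library, and the Elk1 share is higher in stimulated libraries (28.5% to 32.1%) than in unstimulated ones (18.9% to 26.3%).

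Srf, the partner of all TCFs, was lower than WT in HZ libraries and did not pass in KO libraries. It stood at 100.9 and 101.0 CPM in unstimulated WT, 70.5 and 74.2 in HZ, with 99.3 and 108.0 in KO libraries. After stimulation it stood at 120.4 and 124.3 in WT, 102.5 and 108.3 in HZ, with 125.2 and 118.8 in KO libraries. In each state both HZ libraries were the lowest and the WT and KO values overlapped. HZ was 1.39-fold lower than WT at rest (log2 fold change -0.48, SE 0.0488, adjusted p = 9.52e-12) and 1.16-fold lower after stimulation (-0.22, SE 0.0476, adjusted p = 0.000289). KO against WT gave 0.038 at rest (95% confidence interval -0.057 to 0.13, adjusted p = 0.546) and -0.0039 after stimulation (-0.099 to 0.092, adjusted p = 0.962). KO exceeded HZ 1.43-fold at rest (adjusted p = 1.52e-12) and 1.16-fold after stimulation (adjusted p = 0.000534).

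Ets1 showed the largest genotype difference of the set. Its normalized counts (CPM) were 13.8 and 11.7 in unstimulated WT, 13.9 and 13.6 in HZ, with 4.67 and 3.72 in KO libraries, from 457 and 411, 483 and 448, and 175 and 132 reads. After stimulation they were 28.4 and 27.7 in WT, 12.8 and 13.5 in HZ, with 7.94 and 8.76 in KO libraries. KO libraries were the lowest in each state, and both stimulated HZ libraries lay just below the unstimulated ones. KO was 3.04-fold lower than WT at rest (log2 fold change -1.60, SE 0.134, adjusted p = 3.24e-14) and 3.36-fold lower after stimulation (-1.75, SE 0.122, adjusted p = 8.04e-17). HZ against WT gave 0.11 at rest (95% confidence interval -0.13 to 0.34, adjusted p = 0.473), but HZ was 2.13-fold lower after stimulation (adjusted p = 6.38e-11). Ets1 is also abundant in lymphocytes, and the summed lymphocyte markers were at most 0.360 FPKM in any library.

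Ets2, the close relative of Ets1, was lower than in WT with both labels. Its CPM were 24.0 and 20.5 in unstimulated WT, 12.29 and 12.31 in HZ, with 14.9 and 16.5 in KO libraries, and 55.9 and 56.2, 31.3 and 31.4, and 32.9 and 32.1 after stimulation. In each state all HZ and KO libraries lay below both WT libraries. KO was 1.41-fold lower than WT at rest (log2 fold change -0.50, SE 0.0879, adjusted p = 5.62e-06) and 1.73-fold lower after stimulation (-0.79, SE 0.0797, adjusted p = 1.38e-11). HZ was 1.80-fold lower at rest (adjusted p = 4.47e-11) and 1.79-fold lower after stimulation (adjusted p = 3.03e-12). KO was 1.28-fold higher than HZ at rest (adjusted p = 0.00179), a call lost without KO unstimulated replicate 2 (adjusted p = 0.0543), and the log2 difference after stimulation was 0.051 (95% confidence interval -0.11 to 0.22, adjusted p = 0.713).

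Elf1, Fli1, Etv6 and Gabpa differed from WT by at most 1.19-fold in every genotype comparison. Elf1, a regulator in blood and endothelial cells, was 1.11-fold lower in stimulated KO than WT libraries (adjusted p = 0.000349) and 1.19-fold lower in stimulated HZ than WT libraries (adjusted p = 1.09e-07). At rest its HZ level was 1.08-fold higher than WT (adjusted p = 0.00815), which was lost without WT unstimulated replicate 1 (adjusted p = 0.0908) or HZ unstimulated replicate 2 (0.133), and with library totals (0.163). Fli1, a factor of blood stem cells and megakaryocytes, was 1.14-fold lower in HZ than in WT at rest (adjusted p = 0.000126) and 1.099-fold lower after stimulation (adjusted p = 0.0107). The latter was lost in limma (adjusted p = 0.0767 to 0.0969) and without WT stimulated replicate 1 (adjusted p = 0.098) or HZ stimulated replicate 1 (0.164).

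Gabpa, the ETS subunit of the GABP complex, stood at 55.4 and 57.2 CPM in stimulated WT, 55.8 and 56.0 in HZ, with 45.3 and 51.0 in KO libraries. It was 1.17-fold lower in KO than in WT (adjusted p = 0.00292), a call that was lost without KO stimulated replicate 1 (adjusted p = 0.149). At rest the KO to WT log2 fold change of Gabpa was -0.13 (adjusted p = 0.0764), which passed with library totals (adjusted p = 0.0366). Etv6, a repressor, did not pass between KO and WT (log2 fold change -0.0052 at rest and -0.036 after stimulation, adjusted p = 0.939 and 0.56). In stimulated HZ libraries it was 1.09-fold higher than in WT (adjusted p = 0.0263), which DESeq2 did not call (adjusted p = 0.109) and which was lost without WT stimulated replicate 2 (adjusted p = 0.16), HZ stimulated replicate 1 (0.147) or HZ stimulated replicate 2 (0.0508).

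KO and HZ libraries were also compared directly. At rest 7 of the 10 genes differed, 3 higher and 4 lower in KO, against 45.2% of all genes (23.4% higher, 21.8% lower), and after stimulation 5 differed, 2 higher and 3 lower, against 24.9% (12.9% of all genes higher). Ets1 alone also met the fold threshold, in both states, against 9.60% and 5.32% of all genes. In addition to the values above, resting KO libraries had 1.28-fold less Elk3 (adjusted p = 0.000119) and 3.27-fold less Ets1 than HZ libraries (adjusted p = 4.43e-15). In stimulated cells Ets1 was 1.57-fold lower in KO than in HZ (adjusted p = 6.44e-05), while Elk1, Elk3, Elk4 and Ets2 did not pass. Of the 5 stimulated differences those of Elf1 (1.07-fold higher in KO), Etv6 (1.12-fold lower) and Gabpa (1.16-fold lower) each lost their call without KO stimulated replicate 1, at adjusted p = 0.141, 0.134 and 0.238. Etv6 also lost it without HZ stimulated replicate 1 (adjusted p = 0.0629) and Elf1 without any 1 of the 4 libraries (0.1245 to 0.179). Fli1 at rest, 1.099-fold higher in KO, lost its call without KO unstimulated replicate 2 (adjusted p = 0.0837).

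**Figure D3:**
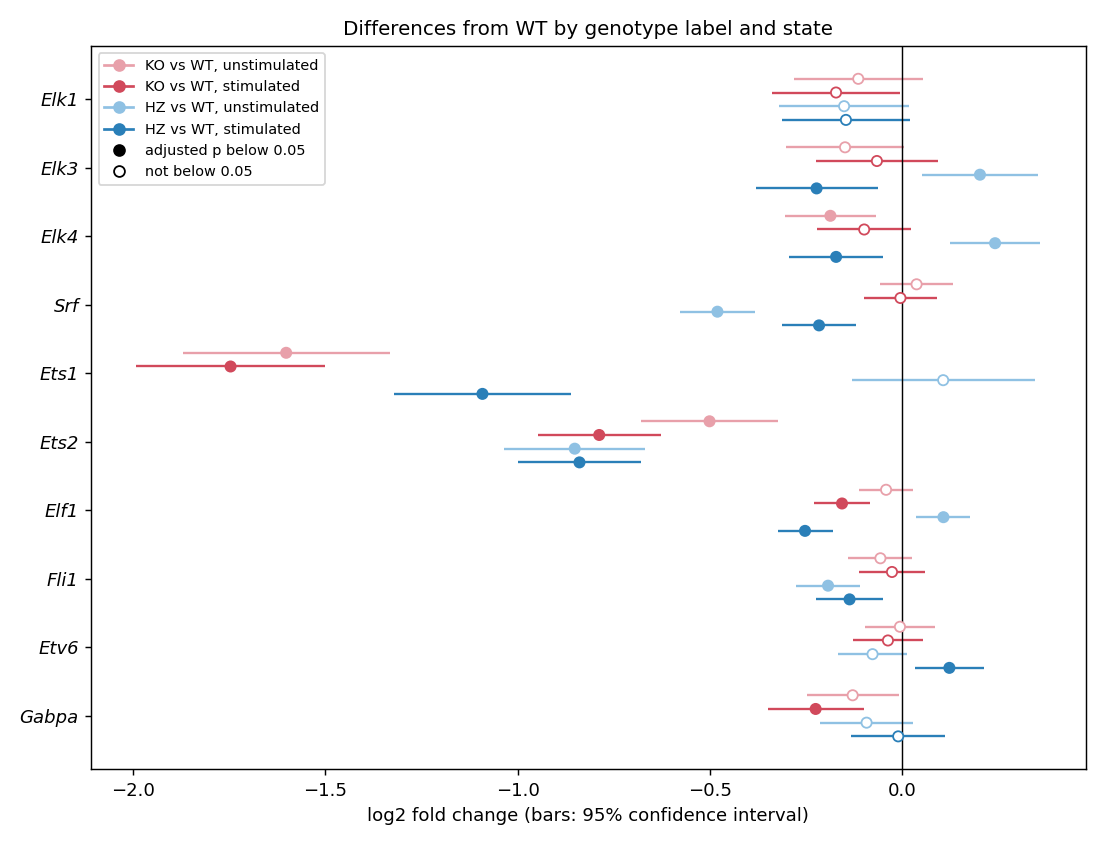
Log2 fold changes of the 10 genes against WT, with 95% confidence intervals, for KO and HZ libraries in each state. Filled points passed an adjusted p of 0.05. The values of Ets1 in KO libraries (-1.60 and -1.75) and in stimulated HZ libraries (-1.09) lie farthest from 0, followed by Ets2 in all 4 comparisons (-0.50 to -0.85), and no KO value above 0 was called.

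Antigen stimulation raised Ets2 in all 3 genotypes and Ets1 in WT and KO cells, and moved the other genes less. In WT cells 6 of the 10 genes changed, 5 higher and 1 lower, against 45.3% of all genes (22.4% higher, 22.9% lower). In HZ cells 8 changed, 4 each way, against 64.4% (32.9% higher, 31.6% lower), and in KO cells 7, 5 higher and 2 lower, against 40.8% (20.4% higher, 20.5% lower). These values assume the trimmed mean scaling. With library totals the median of all genes moved to -0.32 in WT, -0.24 in HZ and -0.30 in KO (log2), so that small changes depended on this choice. Only Ets1 and Ets2 met the 2-fold threshold used in the study, both in WT (6.77% of all genes), and of them Ets2 alone in HZ (14.3%) and in KO (6.61%). With library totals Ets1 in WT and Ets2 in KO lay below 2-fold.

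Ets2 rose 2.53-fold in WT (log2 fold change 1.34, SE 0.0813, adjusted p = 3.86e-19), 2.55-fold in HZ (adjusted p = 4.79e-18) and 2.07-fold in KO cells (adjusted p = 2.03e-14). With library totals its rises were 1.03, 1.12 and 0.76 on the log2 scale. Ets1 rose 2.20-fold in WT (log2 fold change 1.14, SE 0.114, adjusted p = 9.63e-12) and 1.99-fold in KO cells (0.99, SE 0.142, adjusted p = 1.10e-07), and with library totals by 0.83 and 0.70 on the log2 scale. In HZ cells its change was -0.063 (95% confidence interval -0.30 to 0.18, adjusted p = 0.661), and with library totals it was -0.29 (adjusted p = 0.0261). Stimulated KO libraries, at up to 8.76 CPM of Ets1, remained below the lowest unstimulated WT library at 11.7 CPM.

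Elk1 was the TCF gene called higher on stimulation, though not with library totals. It rose 1.28-fold in WT (adjusted p = 0.000377), 1.28-fold in HZ (adjusted p = 0.000218) and 1.23-fold in KO cells (adjusted p = 0.00339), and with library totals these changes were 0.048, 0.13 and 0.0093 on the log2 scale and none was called. The KO call was also lost without KO stimulated replicate 2 (adjusted p = 0.0764). Elk3 and Elk4 fell in HZ cells, 1.45-fold (adjusted p = 3.88e-08) and 1.39-fold (adjusted p = 1.65e-09), and did so with library totals too. In WT and KO cells Elk3 (-0.11 and -0.031, adjusted p = 0.237 and 0.793) and Elk4 (-0.063 and 0.025, adjusted p = 0.422 and 0.78) did not pass. With library totals both were called lower there, at -0.42 and -0.32 for Elk3 and -0.37 and -0.26 for Elk4, and without WT stimulated replicate 1 Elk4 was called lower in WT at -0.18 (adjusted p = 0.0405).

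Srf rose 1.21-fold in WT (adjusted p = 3.42e-06), 1.46-fold in HZ (adjusted p = 1.58e-13) and 1.18-fold in KO cells (adjusted p = 5.72e-05), but with library totals its change was -0.031 in WT and -0.053 in KO, and 0.31 in HZ (adjusted p = 3.05e-07). Etv6 rose 1.18-fold, 1.35-fold and 1.15-fold in WT, HZ and KO cells, and with library totals gave -0.073, 0.20 and -0.085. Fli1 fell in all 3 genotypes under both scalings, by 1.17-fold, 1.12-fold and 1.14-fold with the trimmed mean scaling (adjusted p = 1.78e-05, 0.000605 and 0.000182). Elf1 fell 1.26-fold in HZ cells (adjusted p = 1.54e-11). Its fall in KO cells (1.06-fold, adjusted p = 0.0378) was lost in DESeq2 (adjusted p = 0.1) and without any 1 of the 4 libraries (0.0865 to 0.159). In WT cells Elf1 did not pass (0.025, adjusted p = 0.6), and with library totals it was lower (-0.28, adjusted p = 1.76e-09). Gabpa did not pass in any genotype, at -0.035, 0.047 and -0.13. With library totals it was called lower in all 3, and without KO stimulated replicate 2 in KO (-0.22, adjusted p = 0.0192).

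**Figure D4:**
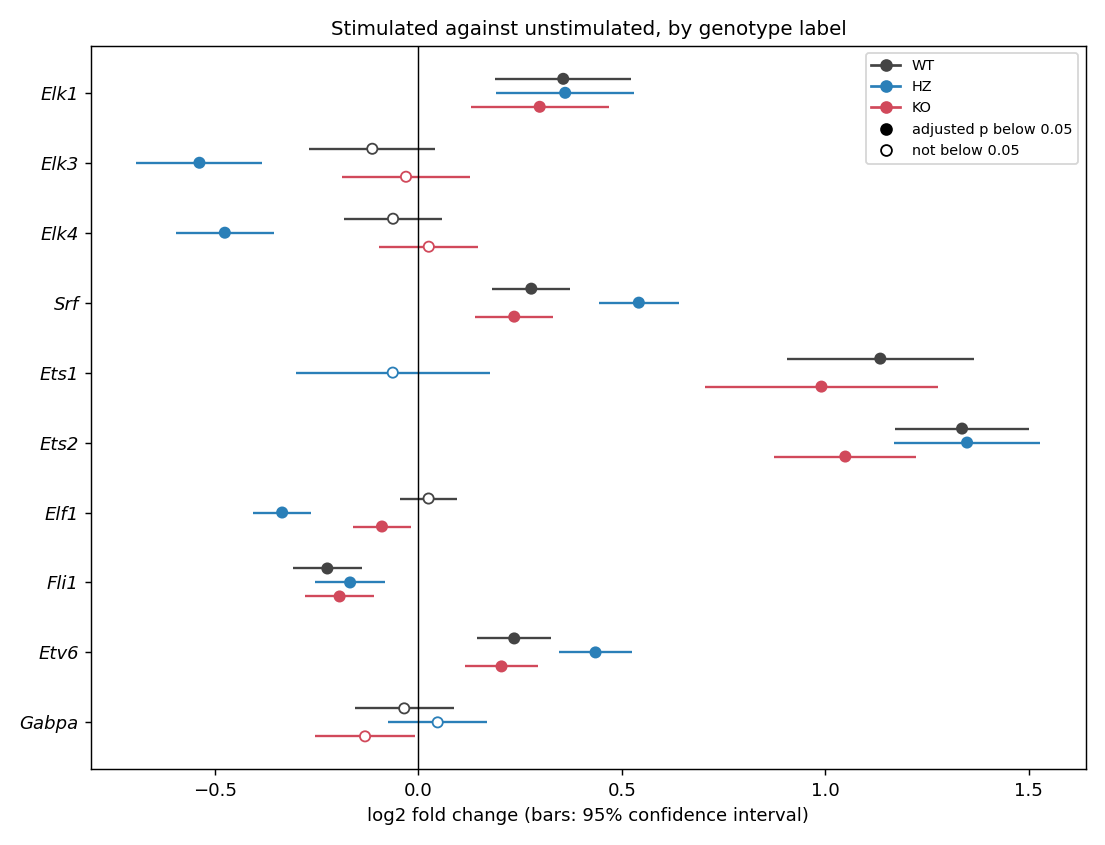
Log2 fold changes on stimulation for the 10 genes in WT, HZ and KO cells, with 95% confidence intervals and the trimmed mean scaling. Ets2 lies between 1.05 and 1.35 in all 3 genotypes, Ets1 at 1.14 and 0.99 in WT and KO but at -0.063 in HZ, and Elk3 and Elk4 lie below 0 by a called amount in HZ only in this scaling.

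The response itself was compared between genotypes by an interaction term. For KO against WT 0 of the 10 genes passed edgeR's test, against 9.27% of all genes (5.44% higher, 3.83% lower), or 1.79% with the fold threshold. At an unadjusted p below 0.05 there were 2 (Ets2 and Elf1), and DESeq2 and limma also called 0. The nearest was Ets2, whose rise was smaller in KO cells by a log2 difference of -0.29 (95% confidence interval -0.53 to -0.048, adjusted p = 0.134), and which passed without WT unstimulated replicate 1 (-0.41, adjusted p = 0.0438). The intervals for Elk1 (-0.30 to 0.18), Elk3 (-0.14 to 0.30) and Elk4 (-0.083 to 0.26) all held 0.

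For HZ against WT 6 of the 10 interactions passed, 2 higher and 4 lower, against 38.5% of all genes (19.9% higher, 18.6% lower), and with the fold threshold Ets1 alone, against 13.6%. The response was lower in HZ cells for Ets1 (log2 difference -1.20, SE 0.164, adjusted p = 4.69e-08), Elk3 (-0.43, SE 0.109, adjusted p = 0.00139), Elk4 (-0.41, SE 0.0844, adjusted p = 7.90e-05) and Elf1 (-0.36, SE 0.0497, adjusted p = 5.47e-08). It was higher for Srf (0.26, SE 0.0681, adjusted p = 0.0015) and Etv6 (0.20, SE 0.0633, adjusted p = 0.00966). Etv6 lost its call without WT unstimulated replicate 1 (adjusted p = 0.0511) or HZ unstimulated replicate 2 (0.0623), and limma did not call Elk4 at 2 of 3 settings (adjusted p = 0.0539 and 0.0772). The Ets2 response did not pass (0.012, 95% confidence interval -0.23 to 0.25, adjusted p = 0.953).

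Per length, the order of the 10 genes was much the same in all groups. In unstimulated WT libraries Elf1 stood at 54.8 ± 1.27 FPKM (SD, n = 2), Fli1 at 39.1 ± 1.73, Srf at 25.3 ± 0.128, Etv6 at 19.3 ± 0.405, Elk4 at 17.3 ± 0.894 and Gabpa at 12.3 ± 0.494. Elk1 followed at 8.00 ± 0.171, Elk3 at 7.39 ± 0.0440, Ets2 at 6.99 ± 0.750 and Ets1 at 2.64 ± 0.289, and of all neighbours the libraries of Elk3 and Ets2 alone overlapped. Elf1 and Fli1 led and Ets1 was last in every group. In unstimulated HZ libraries Srf came after Etv6 at 17.6 ± 0.600 FPKM, overlapping it at 17.7 ± 0.495 and below Elk4 at 19.8 ± 1.16. Ets2 moved from rank 9 at rest to rank 5 in stimulated WT libraries (14.2 ± 0.0581, overlapping Elk4 at 13.4 ± 1.47).

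Of 18 other ETS family genes listed, 16 were in the table and 9 had enough reads. In unstimulated KO against WT libraries 3 of the 9 were higher and 2 lower, where 44.6% of all genes were called, and in stimulated ones 1 was higher and 2 lower, where 40.4% were. Erf, a repressor that ERK exports from the nucleus, was 1.22-fold higher in unstimulated KO than WT libraries (log2 fold change 0.29, adjusted p = 0.000761), from 27.4 and 26.8 CPM in WT to 32.03 and 34.05 in KO. On stimulation it rose by more than the shift in the median of all genes that library totals bring, by log2 fold changes of 1.07 in WT, 0.78 in HZ and 0.85 in KO. Etv5, an ERK-induced activator, was lower than WT in KO (-0.61 at rest and -0.90 after stimulation, adjusted p = 2.60e-08 and 2.73e-12) and in HZ (-0.83 and -0.55, adjusted p = 7.29e-12 and 4.45e-07). Etv4, a relative of Etv5, had 5 to 57 reads per library and was called higher on stimulation in HZ cells (log2 fold change 2.68, SE 0.598, adjusted p = 0.000121) and lower in stimulated KO than WT (-1.76, SE 0.643, adjusted p = 0.0248).

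Of the 4 measured cofactors of SRF and GABPA, Mrtfa alone met the fold threshold. It did so on stimulation, against 6.77%, 14.3% and 6.61% of all genes in WT, HZ and KO cells. At rest 2 of the 4 were called lower and 0 higher in KO than in WT (44.6% of all genes called). In HZ 1 was lower and 1 higher (51.4%). After stimulation 1 was lower in KO (40.4%) and 3 in HZ (34.9%), with 0 higher. Gabpb1, a cofactor of GABPA, averaged 46.9 CPM in unstimulated WT, 47.6 in HZ and 34.8 in KO libraries. Mrtfa, the actin-regulated coactivator that competes with TCFs for SRF, fell on stimulation by 1.05 on the log2 scale in WT (adjusted p = 2.88e-22), by 1.66 in HZ (adjusted p = 1.58e-30) and by 1.04 in KO cells (adjusted p = 6.41e-22). Resting HZ libraries had the most, at 147.9 and 150.0 CPM, against 110.2 and 107.9 in WT and 101.7 and 99.9 in KO libraries. All 10 listed genes of the RAS to ERK cascade were tested, and none met the fold threshold. Between genotypes their log2 fold changes ranged from -0.27 (Araf) to 0.40 (Map2k1), with 2 higher and 2 lower in unstimulated KO against WT (44.6% of all genes called) and 4 higher and 1 lower in stimulated libraries (40.4%).

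The 9 immediate-early targets of TCF and SRF that were listed (Fos, Egr1, Egr2, Egr3, Ier2, Junb, Mcl1, Nr4a1 and Zfp36) all rose on stimulation in WT, HZ and KO cells, where 22.4%, 32.9% and 20.4% of all genes were called higher. These genes were listed as immediate-early genes with earlier results of these data known, so that a rise was anticipated. Their median log2 fold changes were 3.12, 4.98 and 3.84. At rest their levels differed by genotype. In KO against WT libraries 7 of the 9 were lower and Zfp36 higher, where 44.6% of all genes were called, with a median log2 fold change of -0.87 against 0.018 over all genes tested. In HZ against WT libraries all 9 were lower, where 51.4% of all genes were called, with a median of -1.95 against 0.0018. After stimulation 3 targets were higher and 4 lower in KO than in WT (40.4% of all genes called), and 4 were higher and 3 lower in HZ (34.9%). The medians were then -0.045 in KO and 0.052 in HZ, and no target differed from WT by 1.5-fold.

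Egr1, a zinc finger factor and classical TCF target, stood at 686 ± 9.51 CPM in unstimulated WT (SD, n = 2), 177.3 ± 2.39 in HZ and 351 ± 12.4 in KO libraries, and at 5944 ± 106.2, 6208 ± 79.0 and 5745 ± 1.83 after stimulation. Fos, the AP-1 subunit, stood at 14.98 ± 1.01, 2.57 ± 0.219 and 6.32 ± 0.606 CPM at rest and at 542.8 ± 7.02, 656 ± 7.36 and 513.7 ± 3.28 after stimulation. For both genes HZ libraries were the lowest at rest. Egr2 was the target that stayed lower in KO cells after stimulation by the most, at 2543 ± 17.9 CPM against 3627 ± 7.05 in WT (log2 fold change -0.51, adjusted p = 4.54e-22). Zfp36, which encodes an RNA-destabilizing protein, went the other way and was higher in KO libraries at rest (0.73, adjusted p = 9.27e-11) and after stimulation (0.50, adjusted p = 1.31e-12). Srf, itself a TCF target, was lower than WT at rest in HZ libraries, as these 9 genes were, and did not pass in KO libraries.

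**Figure D5:**
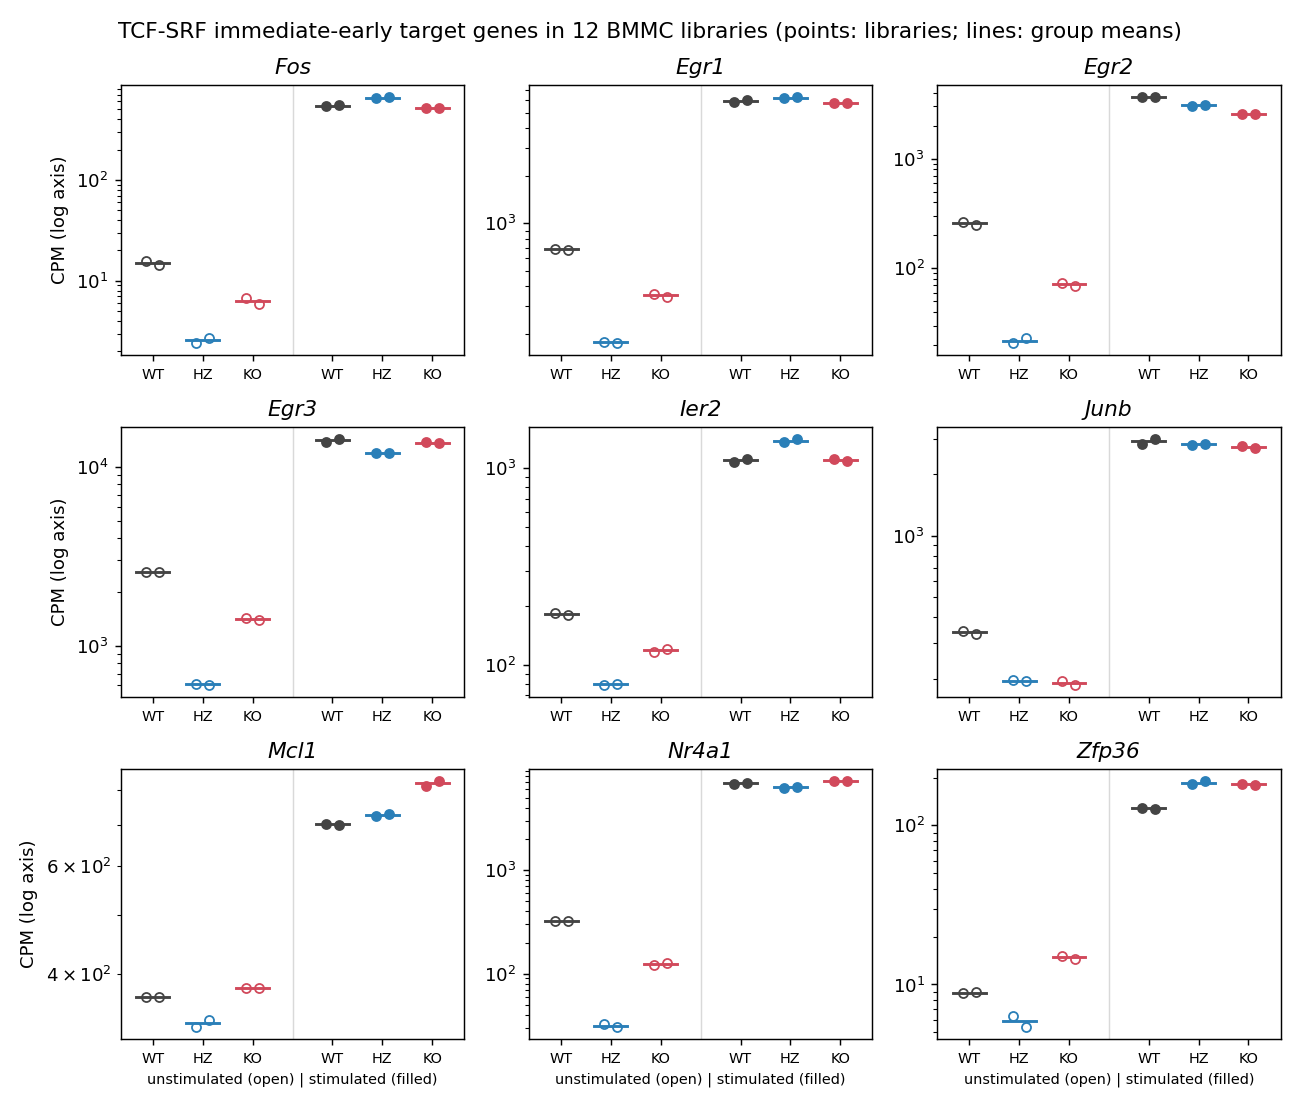
Normalized counts (CPM, log axes) of 9 immediate-early targets of TCF and SRF in the 12 libraries, open points unstimulated and filled points stimulated, lines means of 2 libraries. At rest HZ libraries are lowest for 8 of the 9 genes by mean, and after stimulation the groups lie close together.

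The study also used a list of 75 TCF target genes drawn from chromatin immunoprecipitation in fibroblasts, of which 73 were tested. In unstimulated KO against WT libraries 18 were higher and 16 lower, against 44.6% of all genes called, with a median log2 fold change of 0.014 against 0.018 over all genes. The KO response differed from the WT response for 14 of the 73, 11 larger and 3 smaller, against 9.27% of all genes (5.44% higher, 3.83% lower). The list shares Fos, Egr1, Egr2, Ier2, Junb, Nr4a1 and Zfp36 with the 9 targets above. The larger ones were led by Ptgs2, the inducible cyclooxygenase gene (log2 difference 1.66, SE 0.217, adjusted p = 1.19e-07), and by Nr4a1 and Egr2 of the targets above (1.47 and 1.34). The smaller ones were Eef1b2, a translation elongation factor gene (-0.25, adjusted p = 0.000253), Arpc4, an actin nucleation gene (-0.21, adjusted p = 0.00594) and Eif4a1, a translation initiation gene (-0.17, adjusted p = 0.000919).

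Across the 12 libraries, the genes whose log2 CPM followed each TCF gene and Srf most closely were sought among 12198 other tested genes. For Elk1 they included Apold1 (Pearson's r = 0.976) and Myl12a (0.967), and for Elk3 Arhgap31 (0.974), Dok3 (0.960) and Csf2rb2 (0.958). For Elk4 they were Zfp317 (0.950), Jak2 (0.949) and Avl9 (0.942), and for Srf Samd4b (0.972), Sf3a2 (0.968) and Ipo4 (0.958). These correlations describe 6 groups of 2 libraries that share a state or a genotype label, and are not tests.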

How the data were processed

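Total RNA of 12 BMMC libraries was sequenced by the authors. Per the labels' processing notes, fastp, HISAT2 and HTSeq were used with build GRCm39; versions are not given in the sources used here. The deposited tables hold raw counts per gene and FPKM values, which the authors divided by gene length and library total. No columns of the authors' own comparisons were used. The files give no coordinates, so promoter sequences come from RefSeq (GRCm38.p6).

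Counts were tested in R 4.3.3 with edgeR 4.0.16 (quasi-likelihood F-test, trimmed mean of M values scaling, genes kept by filterByExpr) in one model of the 6 groups, with Benjamini-Hochberg adjustment over 12208 genes within each of 11 comparisons. A gene was called at adjusted p below 0.05, and all intervals are 95%. With 6 residual degrees of freedom, the spread was moderated across genes. FPKM served for levels between genes, CPM for the rest (log2 with a prior count of 2 in correlations). The study's thresholds were 2-fold for stimulation and 1.5-fold or 0.66-fold between genotypes. DESeq2 1.42.0, limma 3.58.1 on log2(FPKM + 1) or log2(FPKM + 0.1), other scalings, filters, a replicate block and leaving out each library were alternatives. Leaving out 1 library leaves a lone sample, which is assumed to vary like the other groups. The scripts were tested on simulated data.

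The 10 genes and all lists were chosen with earlier results of these data known. Named from the lists were genes past the study's thresholds, at most 8 a list, the 3 largest KO interactions in each direction of the TCF target list, and the 3 genes most like Elk1, Elk3, Elk4 and Srf, of which 1 is not reported here. Further marker sums over the 12 libraries were 69.6 to 107.7 FPKM for 3 basophil, 0.771 to 1.85 for 3 eosinophil and 475.7 to 860.9 for 4 megakaryocyte genes (Itga2b and Gp1ba; Pf4 was near 0). Of 5 sex-linked genes listed, set beside the X-chromosomal Elk1, 0 were among the genes counted, so the sex of the libraries was not checked. Same-numbered libraries did not deviate together (15 correlations of deviations over groups, -0.036 to 0.063). Within a genotype the correlations were -0.023 (WT), 0.063 (HZ) and -0.021 (KO). Whether the numbers pair the libraries cannot be told from these values, since the spread between replicates may be technical. The 2 libraries of a group differed by more than counting noise (chi-square per degree of freedom 2.94 to 5.16). Counting limits matter for Etv4 and, at rest, for Ptgs2 and Apold1, with as few as 5, 21 and 10 reads in a library, while each of the 10 genes had at least 132 reads in every library.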

Additional observations from a re-analysis of the deposited data

Results flagged for a closer look

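The size of the response to stimulation differed between genotypes in 34 cases among the 10 genes, the 9 immediate-early targets and the other genes named by rule from the lists, each by the interaction term of the edgeR model, and for no other reason was a value singled out, since no group has the 4 libraries that a check for outlying samples needs. All differences are in log2 units, KO or HZ response minus WT response.

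For KO these were Fos 1.16, Nr4a1 1.47, Egr2 1.34, Egr1 0.92, Egr3 0.82, Ier2 0.62, Junb 0.73, Mcl1 0.17 and Ptgs2 1.66, all larger, and Eef1b2 -0.25, Arpc4 -0.21 and Eif4a1 -0.17, all smaller. None of the genes in this list is one of the 10 genes. Fos, Nr4a1, Egr1, Egr2, Egr3, Ier2 and Junb had lower unstimulated levels in KO than in WT libraries. Their stimulated levels differed from WT by less than 1.5-fold. Egr2, for example, stood at 71.4 CPM in unstimulated KO against 257.6 in WT, and at 2543 against 3627 after stimulation.

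For HZ the 10 genes gave 6 such differences, Elk3 -0.43, Elk4 -0.41, Srf 0.26, Ets1 -1.20, Elf1 -0.36 and Etv6 0.20. Among the other named genes there were Etv4 2.10, Erf -0.29, Mrtfa -0.61, Fos 2.81, Nr4a1 3.24, Egr2 3.31, Egr1 2.01, Zfp36 1.13, Egr3 1.84, Ier2 1.52, Junb 0.74, Mcl1 0.19, Ptgs2 2.10, Eef1b2 -0.55, Arpc4 -0.14 and Eif4a1 0.50. For the immediate-early targets the unstimulated levels were lower in HZ libraries, while the stimulated levels differed from WT by less than 1.5-fold. The Etv4 value rests on 5 to 57 reads per library.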

How the results depend on the processing

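Of the 60 calls over the 10 genes and 11 comparisons, 44 were kept whichever single library was left out, and 36 were kept with their direction under every alternative test, scaling, filter, block and left-out library, stricter thresholds aside. The cause of the other changes was not tested, except that library totals and unscaled FPKM lower all stimulation values.

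With library totals and in limma on log2(FPKM + 1), with or without a filter, and log2(FPKM + 0.1), the following stimulation values changed sign: in WT Srf (-0.031, -0.030 and -0.031), Elf1 (-0.28, -0.28 and -0.28) and Etv6 (-0.073, -0.069 and -0.073), in HZ Gabpa (-0.18, -0.17 and -0.18) and in KO Elk4 (-0.26, -0.24 and -0.26), Srf (-0.053, -0.051 and -0.053) and Etv6 (-0.085, -0.081 and -0.085).

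With the study's fold thresholds the number of the 10 genes called was 2 in WT, 1 in HZ and 1 in KO on stimulation, 1 for each unstimulated genotype comparison, 2 for stimulated KO against WT, 2 for stimulated HZ against WT, 1 for stimulated KO against HZ and 1 for the HZ response. At adjusted p below 0.01, stimulated HZ against WT kept 4, where 25.2% of all genes were called. Leaving out single libraries gave 6 to 7 calls on stimulation in WT, 8 in HZ and 6 in KO; 2 to 3 for unstimulated KO against WT, 4 to 6 for HZ against WT and 5 to 7 for KO against HZ; 3 to 5, 4 to 6 and 2 to 4 for the same comparisons after stimulation; and 0 to 1 for the KO and 5 to 6 for the HZ response. In every comparison the share of all genes called was lower with a library left out than with all libraries. By counts not divided by length, the share of Elk4 among the TCF genes was 56.2% in WT, 59.3% in HZ and 55.3% in KO at rest, and 53.3%, 53.5% and 53.7% after stimulation. As a share of summed FPKM, single libraries gave 51.8% to 54.1%, 55.0% to 58.2% and 50.6% to 53.3%, then 46.3% to 52.2%, 48.0% to 50.7% and 49.5% to 50.1%.

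The replicate block, though it is not known whether the numbers pair the libraries, changed 1 call over the 10 genes: Fli1 in stimulated KO against HZ passed at adjusted p = 0.0459 (0.11), against 0.0548 without the block. With the block the numbers of genes called were otherwise the same, and a block within genotype changed none. The order of the genes by FPKM was also taken with the trimmed mean scaling, which leaves the order within a library as it is.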
